A study of Mus musculus with 6 samples.

Results

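The clustered protocadherin locus of mouse chromosome 18 was described from CpG positions read 10 or more times in each of 6 methylation libraries, between bases 36930000 and 37845000 (GRCm38). This interval holds the Pcdha, Pcdhb and Pcdhg gene clusters. Of 1230 positions listed there in any library, 865 met the rule, out of 1463044 in the whole series. The 2 strands of a CpG are separate positions in the files, and the 865 positions came from 768 CpGs. By position, 173 lay in the Pcdha cluster, 129 in Pcdhb and 457 in Pcdhg. Another 12 lay between Pcdha and Pcdhb, 84 between Pcdhb and Pcdhg, and 10 beyond Pcdhg.

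The study compared germinal centre B cells from the spleens of mice of the C57BL/6 strain in 2 genotypes, with 3 Tet2 KO libraries and 3 Tet2 WT libraries. Tet2 encodes a dioxygenase that oxidises 5-methylcytosine to 5-hydroxymethylcytosine and further. Methylation was read by enhanced reduced representation bisulfite sequencing (ERRBS), which sequences CpG-rich MspI fragments after bisulfite treatment and reads both modified bases alike. The sources used here do not give the knockout allele, any Cre driver, the immunisation, the age and sex of the mice or any pooling of animals. Libraries of 1 genotype differ only by number, so p-values reflect only how far these libraries vary, which may be technical.

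Clustered protocadherins are cell-surface adhesion proteins of the cadherin superfamily, best known for giving single neurons an identity for self-recognition. In the Pcdha and Pcdhg clusters each variable exon has a promoter of its own and codes for the extracellular, transmembrane and proximal cytoplasmic part of the protein, and it is spliced to constant exons shared by the cluster, while Pcdhb genes have no shared constant exons. In neurons the alternate isoforms are chosen stochastically, with CTCF, cohesin and promoter methylation taking part in the choice, and the C-type isoforms (Pcdhac1, Pcdhac2, Pcdhgc3, Pcdhgc4 and Pcdhgc5) are used more uniformly.

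In the KO libraries 6 positions inside Tet2 were missing that all 3 WT libraries had, at 32 to 168 reads each, and no Tet2 position showed the opposite. Mean coverage of the locus was 104 to 128 reads per position and library. At the CpG-denser end of B-cell genes, Cd79b and Pax5 were at 0.27%, while Cd22 and Blk were at 88.7% and 91.6%. Among genes of other lineages, Cd4, Cd8a, Lck and Cd5 (T cells) were at 81.0% to 94.2% and Cd3d at 0.83%, Itgam, Elane and Csf3r (myeloid cells) at 86.5%, 93.5% and 10.4%, Cdh5, Pecam1 and Kdr (endothelium) at 92.3%, 71.8% and 3.14%, and Klf1 (erythroid cells) at 0.335%. These are means over the 6 libraries. Pecam1 stood at 78.3% ± 1.80 in KO and 65.2% ± 5.52 in WT, and Itgam at 90.5% ± 3.92 in KO and 82.5% ± 1.72 in WT (SD, n = 3 each, not tested). The part of other cell types in the results was not tested. In bulk DNA, a level between 0% and 100% cannot tell apart a mixture of fully methylated and unmethylated copies from partial methylation of every copy.

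Compared with the rest of the genome, the locus held a larger share of positions at 20% to 80% methylation. With each position weighted equally, its mean methylation level was 51.0%, 51.0% and 53.4% in the KO libraries, against 50.2%, 49.7% and 50.4% in the WT libraries. All KO values lay above all WT values, by a mean of 1.69 percentage points (51.8% ± 1.38 in KO and 50.1% ± 0.392 in WT, SD, n = 3 each). The exact two-sided permutation p was 0.1, the smallest that 3 libraries against 3 can give (adjusted p = 0.3 over the locus and its 3 clusters), so a 5% threshold could not be reached. Without KO3 the difference was 0.876 points, and with reads pooled over positions it was 0.992 points. The rest of the genome was at 33.8% ± 0.151 in KO and 33.0% ± 0.413 in WT. Within each library the locus exceeded the rest of the genome, by 17.6 points on average (SD 1.15, 6 of 6 libraries, exact sign-flip permutation p = 0.03125, the smallest that 6 libraries can give). The excess was 18.04 ± 1.504 points in KO and 17.1 ± 0.636 points in WT (exact permutation p = 0.5).

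Positions at intermediate levels were common in the locus. Between 20% and 80% methylated were 46.4% ± 1.83 of locus positions in KO and 46.9% ± 1.80 in WT. In the rest of the genome this share was 10.8% ± 0.117 in KO and 12.1% ± 0.457 in WT. The locus exceeded the rest of the genome in this share by 35.2 ± 1.62 points and the 4 Hox clusters by 34.4 ± 1.36 points. It exceeded the zinc finger genes Zfp900 to Zfp999, a set picked by gene symbol on any chromosome, by 13.3 ± 2.02 points. Each SD is over 6 libraries, and all 6 were higher each time (exact sign-flip permutation p = 0.03125 adjusted over the 3). These shares were chosen after the data had been seen. Positions under 20% made up 25.5% ± 1.53 of the locus in KO and 27.1% ± 0.667 in WT, against 60.5% and 61.0% in the rest of the genome. Those over 80% made up 28.1% ± 1.66 of the locus in KO and 26.0% ± 1.41 in WT, against 28.7% and 26.9% in the rest of the genome. At positions with an intermediate mean, the median SD between libraries was 8.75 points in KO and 11.7 points in WT at the locus, and 8.40 and 11.8 points in the rest of the genome.

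The 3 clusters stood at different levels. Pcdhb was the most methylated, at 68.0%, 69.7% and 71.9% in KO against 68.7%, 65.8% and 68.2% in WT. Pcdhg stood at 49.4%, 49.5% and 52.3% in KO against 48.8%, 48.6% and 49.5% in WT. Pcdha stood at 48.7%, 46.1% and 49.99% in KO against 46.1%, 46.5% and 45.7% in WT. In each of these 3 clusters the KO and WT libraries overlapped, and the KO mean was the higher. KO minus WT was 2.31 points in Pcdhb, 1.39 in Pcdhg and 2.13 in Pcdha, each with an exact permutation p = 0.3. With reads pooled over positions these were 0.932, 0.868 and 0.107 points, and without KO3 they were 1.29, 0.473 and 1.26 points.

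Between clusters, Pcdhb minus Pcdha was 21.5 ± 1.84 points and Pcdhg minus Pcdhb was −19.0 ± 1.12 points, with the same sign in all 6 libraries (SD over 6 libraries, exact sign-flip permutation p = 0.03125, adjusted over 4 comparisons). Pcdhg minus Pcdha was 2.51 ± 1.11 points (exact sign-flip permutation p = 0.03125), but with reads pooled over positions the difference was −1.05 points (adjusted p = 0.28125), so the order of those 2 depended on the weighting. The test of KO against WT in these gaps cannot give a p under 0.1 (exact permutation p = 0.9, 0.5 and 0.5 for Pcdhb against Pcdha, Pcdhg against Pcdha and Pcdhg against Pcdhb). Pcdha and Pcdhg hold C-type genes and Pcdhb does not. Of the 173 Pcdha positions, 33 lay around the start of Pcdhac1 and 52 around that of Pcdhac2. Around the starts of alternate genes alone (windows defined below), Pcdha averaged 66.8% ± 2.81 in KO and 64.5% ± 1.17 in WT. Pcdhb averaged 69.8% ± 2.44 in KO and 68.6% ± 2.01 in WT there, so the 21.5 points are not a gap between the alternate genes of these clusters. The stretch between Pcdhb and Pcdhg, which holds Taf7, stood at 35.3% ± 1.16 in KO and 35.5% ± 0.482 in WT. The 100 kb on either side of the locus averaged 22.6% ± 0.806 in KO and 21.2% ± 1.01 in WT over 91 positions.

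**Figure D1:**
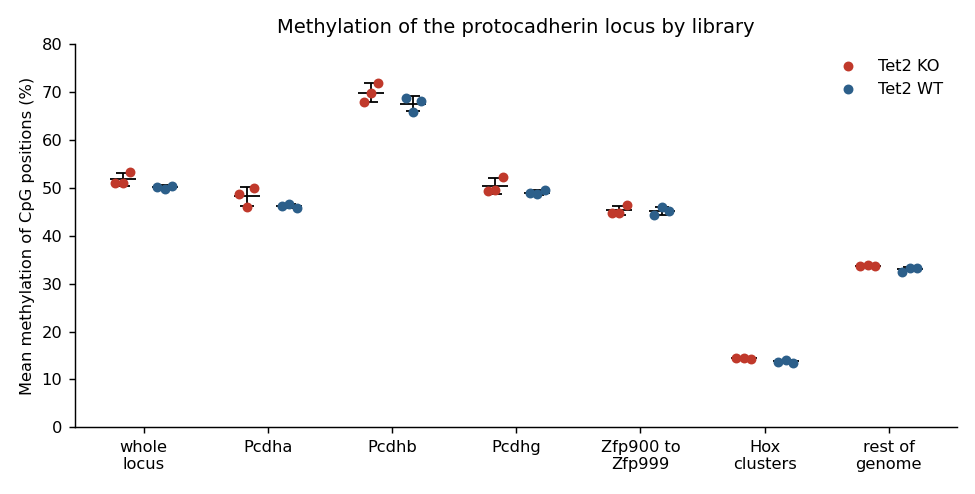
Mean methylation level (percent, y axis) of the locus, its clusters and the compared regions, with KO left of WT; each point is a library and bars show the mean ± SD (n = 3). Pcdhb stands highest at 69.9% in KO and 67.6% in WT, and the Hox clusters lowest at 14.4% and 13.8%.

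Gene starts were then described. The deposited files hold no genes, and RefSeq gene spans of GRCm38 were used without exons. Mouse clustered protocadherin genes read toward higher coordinates, so a window from 500 bp before to 2500 bp after the low-coordinate end of a gene was taken as its promoter and variable exon. It is an approximation for genes whose exon is shorter or longer. Of the 58 clustered genes, counting the pseudogene Pcdhgb8, 44 windows held a covered position and 39 held at least 3. No position was covered for 14 genes, namely Pcdha6, Pcdha7, Pcdha9, Pcdha10, Pcdhb4, Pcdhb6, Pcdhb8, Pcdhb9, Pcdhb10, Pcdhb11, Pcdhb14, Pcdhb19, Pcdhb21 and Pcdhga6. Pcdha11, Pcdhb7, Pcdhb12, Pcdhb15 and Pcdhb22 had 1 or 2 positions. The same window at Taf7, which codes for a subunit of the general transcription factor TFIID, and at Slc25a2, a mitochondrial carrier gene, held none.

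Alternate and C-type genes were far apart. Over 489 positions in alternate windows, Pcdhb genes included, the level was 60.8%, 60.7% and 64.5% in KO against 60.2%, 59.4% and 61.0% in WT. Over 181 positions in C-type windows, it was 19.8%, 18.4% and 20.7% in KO against 18.7%, 18.7% and 18.2% in WT. In both classes the genotypes overlapped (exact permutation p = 0.3 for each), and in every library the C-type level was less than that of alternate windows. Among alternate windows, the mean was 66.8% ± 2.81 in KO and 64.5% ± 1.17 in WT for Pcdha, 69.8% ± 2.44 in KO and 68.6% ± 2.01 in WT for Pcdhb, and 58.8% ± 2.11 in KO and 56.9% ± 0.814 in WT for Pcdhg. Within Pcdhg, the A subfamily averaged 58.7% in KO and 56.6% in WT, and the B subfamily 58.9% in KO and 57.6% in WT.

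Methylation of alternate genes was lower at the start than inside the exon. In the 500 bp before the start it was 38.7% ± 4.51 in KO and 35.6% ± 2.07 in WT, over 19 positions. In the first 500 bp after the start it was 45.1% ± 3.47 in KO and 44.2% ± 0.972 in WT, over 141 positions. The level at 1000 to 1499 bp was 76.4% ± 2.10 in KO and 73.2% ± 2.68 in WT, over 106 positions, and the 2 genotypes overlapped within their SD in each of these bins. C-type genes stood at 14.3% ± 1.23 in KO and 12.2% ± 0.700 in WT in the first 500 bp and 64.6% ± 3.12 in KO and 63.2% ± 0.359 in WT at 1500 to 2500 bp. In the 500 bp before the start, over 22 positions of 2 C-type genes, the level was 5.51% ± 0.0795 in KO and 3.87% ± 0.0541 in WT, with all KO libraries above all WT libraries. In Pcdhb genes at 1000 to 1499 bp, over 22 positions of 3 genes, it was 85.9% ± 0.180 in KO and 80.2% ± 2.41 in WT, also without overlap. The same held for C-type genes in the first 500 bp and for Pcdhg alternate genes in the 500 bp after those, so that the KO libraries all lay above the WT libraries in 4 of the 18 class bins and all below in 0. These bins were picked after their values were seen and were not tested. No share of such bins over the genome was computed. Among all 1 kb tiles tested, a different unit, the KO libraries all lay above in 12.7% and all below in 3.54%. Of the 22 positions before C-type starts, 13 lay at Pcdhac1 alone, at 9.21% ± 0.248 in KO and 6.32% ± 0.320 in WT. In the first 500 bp, 43 of the 85 C-type positions lay at Pcdhac1 and Pcdhac2, at 23.6% ± 2.85 in KO and 19.3% ± 1.27 in WT. Within 500 bp on either side of the start, the KO mean was the lower at Pcdhgc3 (0.304% in KO, 0.592% in WT) and Pcdhgc4 (0.977% in KO, 1.16% in WT). Different genes fill different bins, so start and inside were also compared within genes. Of 20 genes with at least 3 positions within 500 bp of the start and 3 farther inside the window, the inside exceeded the start in every library in 16, with a median gap of 23.6 points over the 20. By class this held in 10 of 12 Pcdhg alternate, 2 of 2 Pcdhb, 1 of 2 Pcdha alternate and 3 of 4 C-type genes. Pcdhga1 had a gap of 53.3 points, Pcdhb1 51.7 and Pcdhb2 51.0. The exceptions were Pcdha5 (−20.5), Pcdhgb1 (−7.50), Pcdhgc4 (−0.784) and Pcdhga8 (1.27).

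**Figure D2:**
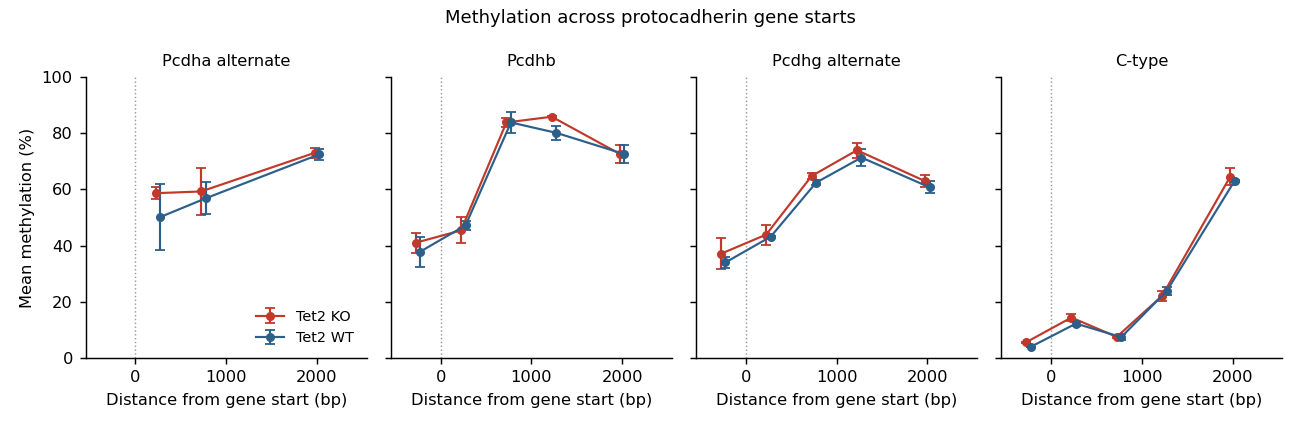
Mean methylation (percent, y axis) by distance from the gene start (bp, x axis) in panels for Pcdha alternate, Pcdhb, Pcdhg alternate and C-type genes, as mean ± SD over 3 libraries in KO and in WT. C-type genes stay under 25% up to 1499 bp in both genotypes, and Pcdhb genes exceed 80% at 500 to 1499 bp.

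Starts at intermediate levels were uncommon elsewhere. Within 500 bp on either side of the start, 12998 other genes with a known strand in the RefSeq promoter table had a median level of 0.310%, and 6.19% of them lay between 20% and 80%. The 19 alternate protocadherins with such coverage, of 53, all lay between 20% and 80%, with a median of 44.1% and a range of 28.7% (Pcdhb1) to 72.4% (Pcdhb13). Among C-type genes, Pcdhgc3 was at 0.448%, Pcdhgc4 at 1.07%, Pcdhac2 at 10.7% and Pcdhac1 at 25.9%. Pcdhgc5 had too few covered positions near its start for this measure. Genes covered here were those with MspI fragments near the start, and no test was made of this difference.

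The C-type windows were not alike. Pcdhgc3, over 63 positions, stood at 2.48%, 2.25% and 3.004% in KO against 2.32%, 3.10% and 2.94% in WT. Pcdhgc4, over 19 positions, stood at 0.452%, 1.71% and 1.18% in KO against 0.980%, 1.13% and 1.47% in WT. Both were nearly unmethylated in every library, and their mean levels fell outside the 5% to 95% range that was tested. Pcdhac2, over 52 positions, stood at 18.2%, 16.9% and 22.0% in KO against 20.5%, 16.9% and 16.7% in WT. Pcdhac1, over 33 positions, stood at 29.7%, 26.9% and 33.0% in KO against 27.1%, 31.0% and 23.0% in WT. In these last 2 the genotypes overlapped. Pcdhgc5, over 14 positions, was highly methylated at 82.1%, 81.2% and 84.7% in KO against 85.7%, 86.0% and 83.1% in WT, again with overlap. Only 2 of these lay in the tile that holds its start, and the others lay farther inside, from base 37821001 on. Pcdhgc3 and Pcdhgc4 had 33 of 63 and 16 of 19 positions within 500 bp of the start, so the windows compare unlike parts of the genes. At 1500 to 2500 bp, 6 positions of Pcdhac1 and Pcdhac2 averaged 73.3% ± 5.86 in KO and 67.0% ± 1.89 in WT.

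No protocadherin window passed the test for a difference between genotypes. Levels here are pooled over the reads of a window, and all 4441 tested windows of the genome were fitted together with a quasi-binomial model whose dispersion was moderated by limma's method. Windows of other genes were also placed at the low-coordinate end, whichever way the gene reads. For genes that read toward lower coordinates this is the far end of the gene. The genome-wide values given for windows therefore mix gene starts with gene ends. A feature was called when its Benjamini-Hochberg adjusted p was under 0.05 and the KO and WT means lay 10 or more points apart. None of the 36 protocadherin windows tested was called, and none of the 4441 genome-wide (0%). At an unadjusted p under 0.05, 0 of the 36 windows passed, against 14.1% of all windows tested. The lowest adjusted p among them was 0.379, at Pcdhgb1. Applied to log2 ratios of methylated to unmethylated reads, limma's test called 0 and found 0 at an unadjusted p under 0.05, and without moderation the model called 0 and found 2. The KO mean exceeded the WT mean in 25 of the 36, or 69.4%, against 70% of all windows, and the median difference was 1.18 points against 1.35 for all windows tested.

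Every KO library exceeded every WT library in 4 of the 36 windows (11.1%, against 17% of all windows), namely Pcdhb17, Pcdhb20, Pcdhga3 and Pcdhgb1. Every KO library was lower in 1, Pcdhga1 (2.78%, against 2.27%). With the positions of a window weighted equally, a setting added after the data had been seen, the genotypes overlapped in Pcdhb20, Pcdhgb1 and Pcdhga1. The same weighting separated them in Pcdhga5, also named after its values were seen. There every KO library lay above every WT library by a mean of 8.12 points, against 4.14 points with overlap when reads were pooled. Pcdhga3 stood at 67.0%, 65.3% and 76.3% in KO against 60.4%, 62.8% and 65.0% in WT, a difference of 6.83 points, or 3.43 points without KO3. Pcdhgb1 stood at 37.0%, 41.6% and 44.7% in KO against 35.6%, 35.1% and 34.5% in WT, 6.03 points apart. That gap was 2.71 points with positions weighted equally and 18.05 points in a window from 250 bp before to 1500 bp after the start. Pcdhga1, named for its direction after its values were seen, stood at 43.6%, 42.4% and 41.5% in KO against 45.1%, 47.8% and 44.7% in WT, a difference of −3.36 points, or −0.443 points with positions weighted equally. These 3 windows did not pass the test (adjusted p = 0.391, 0.379 and 0.443 from the moderated quasi-binomial model with limma's method).

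Within Pcdha, Pcdha5 had the greatest gap among windows with at least 3 positions. It stood at 52.8%, 31.2% and 43.5% in KO against 29.1%, 33.1% and 29.7% in WT, over 7 positions. The KO libraries KO1 and KO3 were high and KO2 lay among the WT values, so the groups overlapped and the 11.9 points did not pass (limma-moderated adjusted p = 0.412). Without KO1 the gap was 6.73 points. Pcdha2 was the most methylated Pcdha window at 81.1% ± 4.24 in KO and 78.7% ± 3.06 in WT, Pcdha8 differed by 3.69 points and Pcdha12 by −3.75 points, and both overlapped between genotypes. Without WT1 both signs turned, to −0.657 points at Pcdha8 and 1.42 points at Pcdha12.

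Within Pcdhb, Pcdhb20 averaged 82.4% ± 1.75 in KO and 76.8% ± 5.78 in WT, over 4 positions. Pcdhb17 averaged 83.5% ± 1.82 in KO and 78.8% ± 4.71 in WT and was the most methylated Pcdhb window with at least 3 positions. In both, WT2 was the lowest library and the other WT libraries lay within 2 points of the lowest KO library. Without WT2 the gaps were 2.25 points at Pcdhb20 and 2.05 points at Pcdhb17, and Pcdhb20 had 2.31 points with positions weighted equally. Pcdhb1 was the least methylated Pcdhb window with at least 3 positions, at 53.3% ± 4.34 in KO and 52.4% ± 0.485 in WT. Pcdhb13 and Pcdhb18 differed by −2.70 and −2.72 points, with overlap, or by −1.08 without WT1 and −0.803 without KO1. Within Pcdhg, Pcdhga7 was the most methylated window, at 90.4% ± 3.10 in KO and 88.9% ± 1.54 in WT. Pcdhgb6 stood at 70.1%, 61.1% and 73.0% in KO against 64.4%, 59.6% and 57.7% in WT, a difference of 7.47 points with overlap, and Pcdhgb5 differed by 4.48 points, or 0.940 without WT2, 2.51 without KO3 and 7.60 without WT3.

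**Figure D3:**
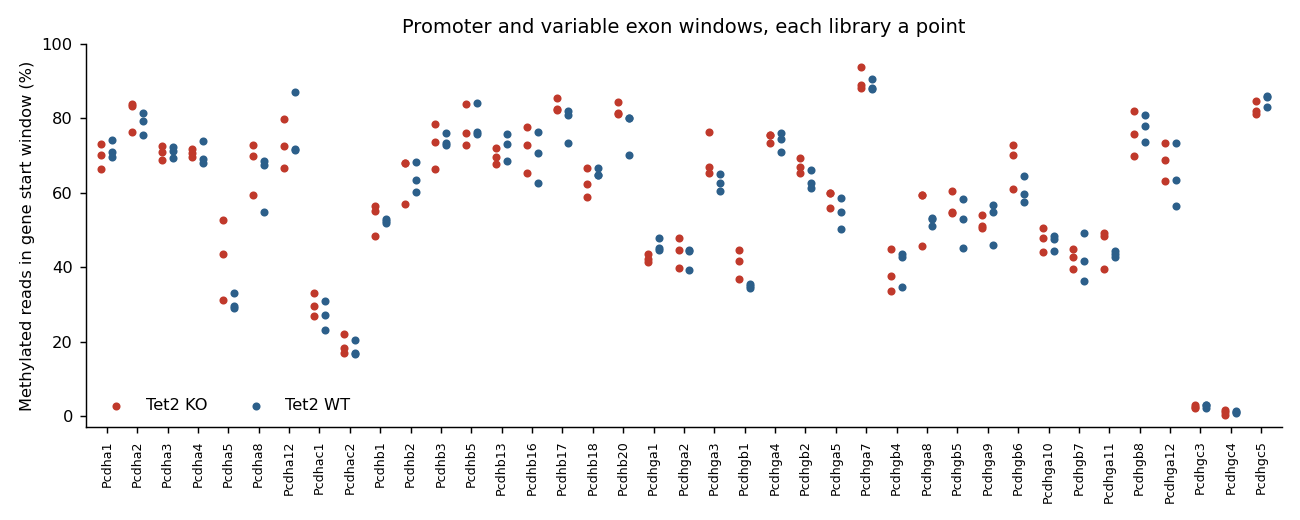
Methylation level (percent) of the protocadherin windows with at least 3 covered positions, each library a point, with KO beside WT in genome order. Levels range from 1.15% at Pcdhgc4 to 89.6% at Pcdhga7 as means over the 6 libraries while the largest gap between genotypes is 11.9 points, at Pcdha5.

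Over 1 kb tiles, 1 tile of the locus was called higher in KO of 81 tested, against 0.685% of the 83114 tiles tested genome-wide. None was called lower, against 0.00241% genome-wide. Of the 125 tiles with a covered position, 88 held the required 3. At an unadjusted p under 0.05 there were 7 tiles, 8.64% against 11.5% of all tiles, with 6 higher and 1 lower. The KO mean was above the WT mean in 60.5% of the 81, against 64% of all tiles, and the median difference was 2.38 points against 1.28. Every KO library exceeded every WT library in 6 tiles (7.41%, against 12.7% of all tiles) and was lower in 3 (3.70%, against 3.54%).

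The called tile lay outside every protocadherin gene, at chr18:37842001-37843000. It sits 128 bp past the annotated end of the Pcdhg cluster and 601 bp before the annotated low-coordinate end of Diaph1, which codes for a formin that nucleates actin filaments. Over 10 positions it stood at 76.2%, 69.9% and 69.1% in KO against 60.8%, 52.1% and 56.8% in WT. All KO libraries lay above all WT libraries, and the means differed by 15.1 points (71.7% ± 3.87 in KO and 56.6% ± 4.34 in WT, SD, n = 3 each; quasi-binomial model moderated by limma's method, adjusted p = 0.0487). Reads ranged from 757 to 1239 per library. The KO mean was the higher at 9 of the 10 positions, and at 5 every KO library exceeded every WT library. Of all positions tested genome-wide, 8.3% had every KO library above every WT library. The tile was called on the reads of these same positions, so their counts are a description and no separate support for the call. The call was lost whichever of the 6 libraries was left out (adjusted p = 0.0552 to 0.251) and with limma's test on log2 ratios (adjusted p = 0.442), while without each library the gap kept its direction at 12.9 to 17.2 points.

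The Pcdhgb1 start had the widest gap of all tested tiles of the locus but was not called. The start of Pcdhgb1, at chr18:37680001-37681000 with 4 positions, stood at 57.1%, 51.3% and 60.2% in KO against 39.5%, 33.6% and 41.4% in WT. The genotypes did not overlap and differed by 18.1 points, more than in the called tile, but on 273 to 595 reads per library (limma-moderated adjusted p = 0.141). Farther into the same exon, the tile at chr18:37682001-37683000 differed by −3.53 points, but by 2.37 points without WT1. The other tiles with the greatest rises in mean lay at Pcdha5 (11.9 points), Pcdhac1 (10.1), Pcdhgb6 (9.62) and Pcdhga10 (8.51). None of these was called (limma-moderated adjusted p = 0.440, 0.573, 0.323 and 0.425, in that order). The genotypes overlapped in the tiles at Pcdha5, Pcdhac1 and Pcdhgb6. At Pcdhga10 the libraries ranged from 54.8% to 61.9% in KO against 45.3% to 51.4% in WT, without overlap. The adjoining tile of that gene, with 27 positions, differed by −1.51 points, and the whole Pcdhga10 window by 0.663 points.

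**Figure D4:**
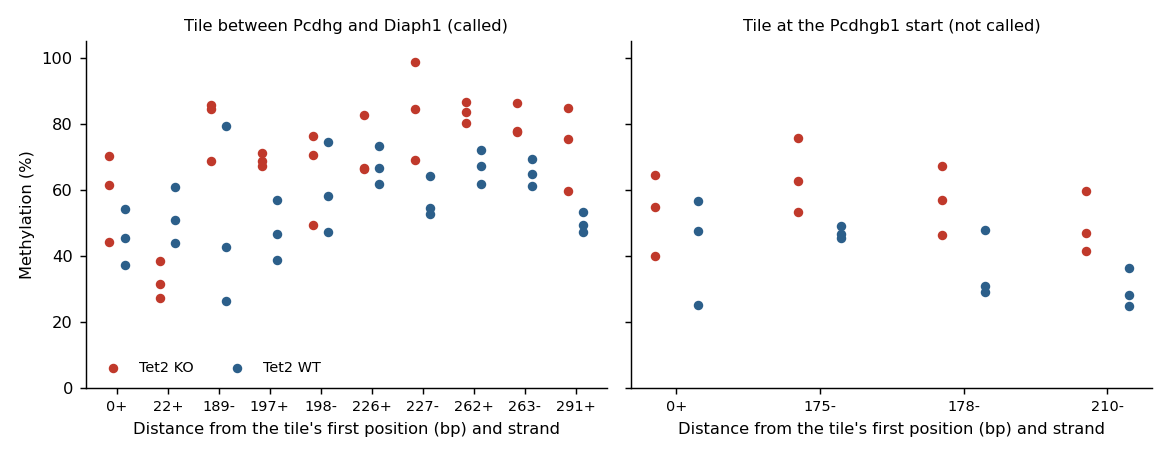
Methylation level (percent, y axis) at each covered position of the called tile beyond Pcdhg and of the tile at the start of Pcdhgb1, with each library a point and KO left of WT; the x axis gives the distance from the tile's first covered position (bp) and the strand. With reads pooled over each tile, the KO means are 71.7% and 56.2% and the WT means 56.6% and 38.1%.

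The tile with the greatest decrease lay inside Pcdhgc5, at chr18:37821001-37822000. It stood at 74.4%, 72.7% and 78.4% in KO against 83.7%, 81.2% and 79.4% in WT, over 9 positions. All KO libraries lay below all WT libraries, a difference of −6.28 points that did not pass (limma-moderated adjusted p = 0.429). The next were 2 tiles outside the gene windows (−4.40 and −3.99 points), then Pcdhb1 (−3.82) and Pcdha12 (−3.75), all 4 with overlap between genotypes. With 1 library left out, the −4.40 became 3.37 (without WT2) and the Pcdha12 value 1.42 (without WT1). The −3.99 and the Pcdhb1 value kept their sign in all 6 such runs. They ranged from −6.78 to −0.972 points and from −6.31 to −1.06 points, smallest without KO1 and without KO2, in that order. Past Pcdhgc5, a tile of 3 positions inside the span of the Pcdhg genes, at chr18:37825001-37826000, was low, at 3.06% ± 2.65 in KO and 4.83% ± 3.54 in WT. Taf7's high-coordinate end was covered by 2 tiles, with 6 and 39 positions, which averaged 0.669% and 0.308% in KO and 0.845% and 0.0172% in WT.

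**Figure D5:**
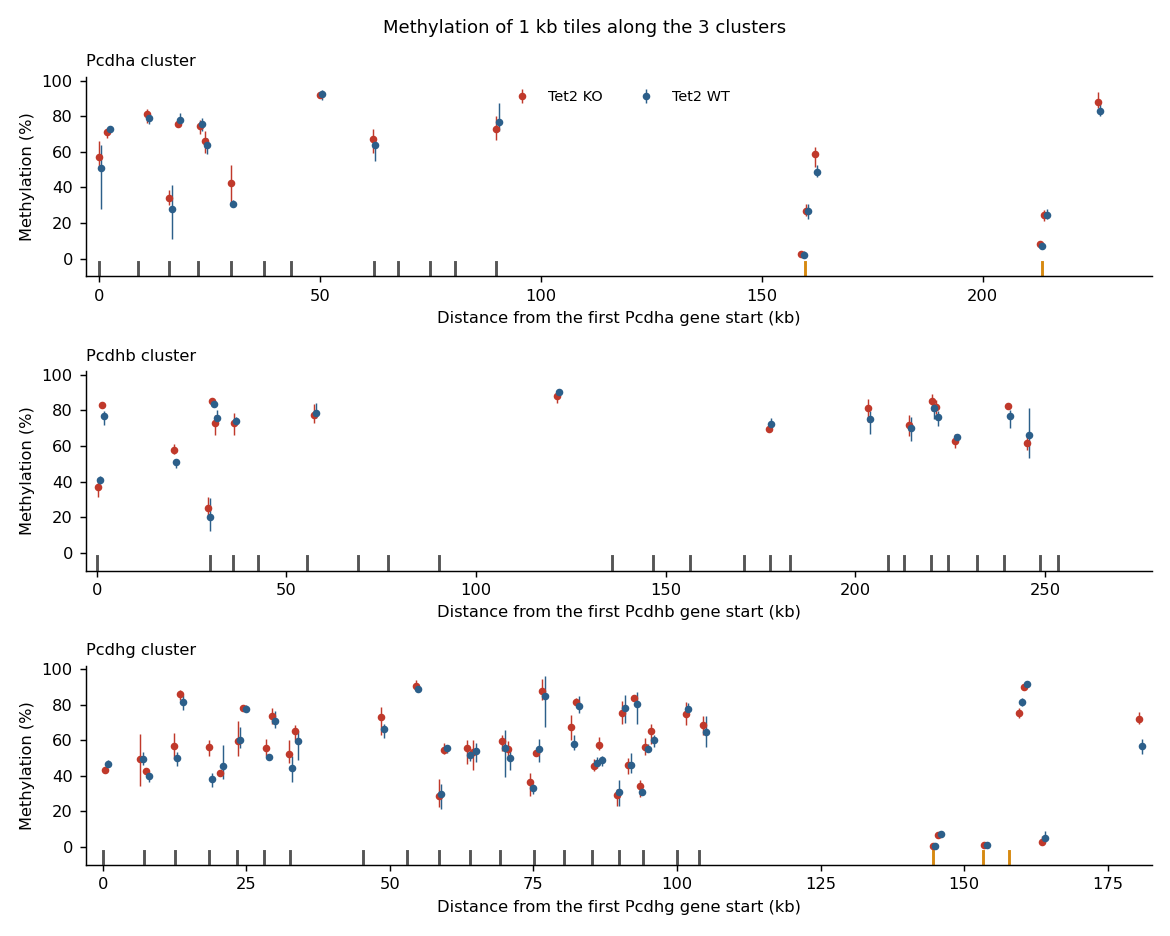
Methylation level (percent, y axis) of 1 kb tiles along the gene starts of the Pcdha, Pcdhb and Pcdhg clusters, by distance from the first gene start (kb, x axis). Points are the KO and WT means and bars run from the lowest to the highest library. Ticks at the bottom mark gene starts, with C-type genes in orange. The Pcdha panel stops before the end of that cluster and leaves out the tile at chr18:37185001-37186000 (KO 46.0%, WT 42.2%). Low tiles lie at the starts of Pcdhac1, Pcdhac2, Pcdhgc3 and Pcdhgc4, and the called tile (KO 71.7%, WT 56.6%) is the last point of the Pcdhg panel, past the end of that cluster.

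At single positions, 0 of 692 tested were called in either direction by the same model, against 0.284% called higher and 0.0105% called lower of the 525213 tested genome-wide. At an unadjusted p under 0.05 there were 45 (6.50%, against 8.7% of all positions), 30 higher and 15 lower. Limma's test on log2 ratios called 0, with 26 at an unadjusted p under 0.05, and the unmoderated model called 0, with 39. The KO mean was the higher at 57.8% of the tested positions, against 58.9% of all. Every KO library exceeded every WT library at 53 positions (7.66%, against 8.3%) and was lower at 29 (4.19%, against 4%). The 2 strands of a CpG, covered together at 97 CpGs, differed by a median of 6.70 points within a library, and 63.1% of such pairs lay within 10 points.

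Genes outside the locus that bear on it were counted over tiles inside the gene or within 1 kb of it. Of 71 tiles tested at 25 regulators of the locus, such as Ctcf, cohesin subunits, Smchd1 and the DNA methyltransferases, 1 was called higher in KO, at Dnmt3a, against 0.685% of all tiles, and 0 lower, against 0.00241%, with a median difference of 2.94 points against 1.28 for all tiles. Of 54 tiles tested at 12 protocadherin genes outside the clusters, 0 were called in either direction, against the same 0.685% and 0.00241%, with a median of 1.11 points.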

How the data were processed

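Per the file headers, each deposited file gives, for CpGs on either strand, a read count (coverage) and the percent read as C or T. Per the submitters' processing notes, Bismark and GRCm38 were used. No source used here gives the Bismark version or filters. The lowest deposited coverage is 10. Methylated read counts were recovered from coverage and percent and were whole within 0.0006 percentage points. Libraries held 174375503 to 203863392 reads over positions. PCR duplicates could not be separated from distinct molecules.

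Positions covered in all 6 libraries were used, singly, in 1 kb tiles and in gene windows with at least 3 positions. Features with a mean of 5% to 95% were tested genome-wide with a quasi-binomial model whose Pearson dispersion, on 4 residual degrees of freedom, was moderated by limma's method written in Python 3.11.15, and p-values were adjusted by Benjamini-Hochberg. The code was tested on simulated data. Level differences used exact permutation tests. Named genes were the C-type genes, the 4 windows per cluster with the greatest gap, the highest and lowest, all calls, and the 6 tiles with the greatest rise and fall. Members and lists were chosen with earlier results of these data known. The labels give no batch. Replicate numbers were checked for pairing, and alternatives covered coverage, tile size, model and each library left out. Gene spans came from a RefSeq table for GRCm38 that holds no strand or exons for these genes. Bases of the locus are not printed here.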

Additional observations from a re-analysis of the deposited data

How the results depend on the processing

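The locus had 1 called tile with a coverage minimum of 20, without the positions of highest coverage, with 500 bp tiles and with the replicate number as a block. It had 0 with coverage in 2 libraries per group, with unmoderated dispersion, with all covered features tested, with limma on log2 ratios, with 2 kb tiles and with at least 5 positions, and 0 to 0 when each library was left out. The cause was not tested. Counts of called windows and positions were 0 under every setting tried.

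Replicate numbers did not pair the libraries: same-numbered KO and WT libraries correlated at 0.0229, 0.0022 and 0.0037 over 83114 tiles. The replicate block called 1 tile of the locus, 0 windows and 0 positions, and 892 tiles genome-wide against 571.

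With each library left out, KO minus WT ranged from 0.876 to 2.13 points over the locus, 1.26 to 3.199 in Pcdha, 1.29 to 3.26 in Pcdhb and 0.473 to 1.94 in Pcdhg. Gaps ranged from 20.8 to 22.0 points for Pcdhb minus Pcdha, 2.20 to 2.99 for Pcdhg minus Pcdha, −19.7 to −18.6 for Pcdhg minus Pcdhb and 17.3 to 17.8 for the locus minus the rest. Gaps in the share of positions at 20% to 80% ranged from 34.7 to 35.6, 34.0 to 34.7 and 12.8 to 14.1 points. All 7 kept their direction, and 5 libraries cannot give an exact permutation p under 0.0625. With reads pooled, Pcdhg minus Pcdha turned to −1.05 points, and KO minus WT was 0.107 points in Pcdha, 0.932 in Pcdhb and 0.868 in Pcdhg. The cause was not tested.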
